A study of Mus musculus with 8 samples.

Results

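The subject is the set of nuclear genes that encode subunits of the mitochondrial respiratory chain and of ATP synthase, measured in the lungs of young mice given retinoic acid, dexamethasone, both or neither. Members were the probe sets with a single gene symbol beginning with Nduf, Sdha to Sdhd, Uqcr, Cox4 to Cox8 or Atp5, and the rule itself uses no measured value. The rule took 100 of the 12422 probe sets on the array that are not controls, standing for 73 of 8251 gene symbols. By complex these were 38 probe sets of complex I, 4 of complex II, 7 of complex III, 23 of complex IV and 22 of complex V. The other 6 belong to Ndufaf1, Ndufaf4, Sdhaf1 and Sdhaf2, which share the name stems but encode factors that help to assemble complexes I and II. A further 10 probe sets for genes of these names carry several symbols and were not used.

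Whole-lung RNA was hybridised to 8 Affymetrix mouse expression arrays. In the RA-Dex group mice received retinoic acid on day 3 and dexamethasone on day 4, in the Dex group dexamethasone on day 4 after oil on day 3, and in the RA group retinoic acid on day 3 followed by saline. No label defines the Dil group, which was taken as the oil and saline arm because that is the only arm left. Each group had 2 arrays, lettered a and b, and nothing says whether these are separate animals, so p-values reflect only array-to-array spread, which may be technical. Mice were 3 days old at the first treatment. No strain, dose or collection time is stated in the labels. The series title names inhibition and protection of alveolar septation, the division of the lung's air sacs after birth.

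The respiratory chain lies in the inner mitochondrial membrane. Complex I takes electrons from NADH and complex II from succinate, ubiquinone carries them to complex III, and cytochrome c carries them on to complex IV, which reduces oxygen. Complexes I, III and IV pump protons out of the matrix, and complex V, ATP synthase, uses the returning protons to make ATP. Dexamethasone is a synthetic glucocorticoid and retinoic acid an active form of vitamin A, and both act through nuclear receptors on transcription. Subunits encoded by the mitochondrial genome are not analysed here.

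Signals were linear intensities already scaled to a common level, with array medians of 317 to 343 and each array had 23.3% to 25.7% of its probe sets at or under the floor of 85.3. A probe set was tested if its mean log2 signal lay above that of a signal of 200.8, whatever the groups, which kept 73 member probe sets of 64 genes among 7309 probe sets in all. Of the 27 members not tested, 6 were at or under the floor on all 8 arrays and 21 were above it on at least 1. The tested members were bright, with a median signal at percentile 81.8 of all tested probe sets and 44 of 73 (60.3%) above percentile 75. The 7 lung markers on the array, among them the surfactant gene Sftpc and the endothelial gene Cdh5, were present on every array, with summed signals of 155740 to 202690. Summed signals of 20 skeletal muscle markers were 7304 to 9794 in the 6 treated arrays, against 13300 and 13793 in Dil, and those of 15 heart markers were 20468 to 24829, against 29074 and 30369 in Dil. The sums of 10 squamous epithelium markers were 2425 to 3984 in the treated arrays, against 7607 and 4603 in Dil. Only 2 of these 10, Krt4 and Krt13, had both Dil arrays above all others. Krt4 alone gave 4680 and 2553 in Dil, against 899 to 1968 in the treated arrays. Both Dil arrays were above all others for 7 of the 20 skeletal muscle and 6 of the 15 heart markers. Among all tested probe sets 6.2% had both Dil arrays on top. The marker counts include markers below the filter, as only 10 of the skeletal muscle and 11 of the heart markers were tested. In whole lung, fewer cells of a type and less RNA per cell cannot be told apart. Muscle is rich in mitochondria, and the part of these other cells in the comparisons with Dil was not tested.

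The promoters of nuclear subunit genes are known for sites of NRF1 and GABP (NRF2), transcription factors that tie their transcription to mitochondrial biogenesis. RefSeq windows of GRCm38.p6, from 250 bases before to 50 after the start of the gene, were matched for 60 of the 73 genes. Both strands were searched for the NRF1 palindrome, whose letters are the first capitals in the Atp5k and Cox6a1 windows, and the GABP core CCGGAAG, whose reverse complement is CTTCCGG. The NRF1 letters stood in 5 of 60 windows (8.33%), those of Ndufaf4, Uqcrc1, Cox6a1, Atp5g2 and Atp5k, against 1.47% of the windows of 17492 protein-coding genes. The GABP core stood in 18 of 60 (30%), against 12.9%. By complex the GABP core was in 3 of 26 windows of complex I, 2 of 3 of complex II, 2 of 4 of complex III, 3 of 11 of complex IV and 5 of 12 of complex V. The rest of its windows were those of assembly factors, 3 of 4, which are not subunits. Ndufaf4, among the NRF1 windows, is an assembly factor too. A full palindromic glucocorticoid response element was in 0 of 60 member windows and in 2 of the 17492 (0.0114%), and TATAAA was in 6 of 60 (10%) against 14.8%. Median GC content was 58.8% in the member windows and 56.3% in those of protein-coding genes. A match is a description of these letters and not of a bound site. Ndufc1 and Ndufb10, among the members with the smallest unadjusted p for dexamethasone, have windows with 0 of these motifs and are not printed. Atp5k and Cox6a1, which alone hold both NRF1 and GABP letters, are printed here with Sdhaf1, which has a small unadjusted p below. Capitals mark the motifs, and the GABP letters stand as the reverse complement. The printed windows are minus-strand sequence, the strand of these genes. The windows are chr5:108434350-108434649 for Atp5k, chr5:115348909-115349208 for Cox6a1 and chr7:30322326-30322625 for Sdhaf1.
Atp5k: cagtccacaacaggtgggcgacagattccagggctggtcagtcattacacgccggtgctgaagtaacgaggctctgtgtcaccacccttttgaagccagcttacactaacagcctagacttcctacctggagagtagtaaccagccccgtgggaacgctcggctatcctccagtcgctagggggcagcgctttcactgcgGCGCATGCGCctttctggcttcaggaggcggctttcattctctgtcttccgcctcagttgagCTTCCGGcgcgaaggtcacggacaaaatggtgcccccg
Cox6a1: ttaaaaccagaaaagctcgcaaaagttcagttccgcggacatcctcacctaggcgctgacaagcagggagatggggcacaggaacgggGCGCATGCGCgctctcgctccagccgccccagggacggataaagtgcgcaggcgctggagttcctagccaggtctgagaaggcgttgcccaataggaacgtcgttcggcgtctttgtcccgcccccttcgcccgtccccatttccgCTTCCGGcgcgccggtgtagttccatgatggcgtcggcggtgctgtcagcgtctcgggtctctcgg
Sdhaf1: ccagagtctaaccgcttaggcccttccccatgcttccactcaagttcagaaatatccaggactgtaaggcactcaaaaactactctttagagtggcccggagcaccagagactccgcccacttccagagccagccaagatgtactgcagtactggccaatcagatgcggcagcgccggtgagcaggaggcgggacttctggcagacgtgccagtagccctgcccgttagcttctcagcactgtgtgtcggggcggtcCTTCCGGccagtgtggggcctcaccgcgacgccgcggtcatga

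No tested member passed the test for either treatment. In the average dexamethasone effect, which sets RA-Dex and Dex against RA and Dil, 0 of 73 passed an adjusted p of 0.05 (limma, Benjamini-Hochberg over all 7309), while 572 of all tested probe sets (7.83%) did, 311 higher (4.26%) and 261 lower. In the average retinoic acid effect, which sets RA-Dex and RA against Dex and Dil, 0 of 73 passed, against 11 of 7309 (0.15%). The count was also 0 for RA-Dex against RA (3.5% of all), RA-Dex against Dex (0.0958%), Dex against Dil (3.23%), RA against Dil (0.0274%) and the interaction of the treatments (0.0137%). The smallest adjusted p of any member was 0.155 for dexamethasone and 0.669 for retinoic acid. At an unadjusted p under 0.05, 3 members passed for dexamethasone (4.11%, against 21.3% of all), namely Ndufc1, Sdhaf1 and Atp5mpl, and 1 for retinoic acid (1.37%, against 6.29%), Cox6a2. In the contrasts of single groups the members past that level numbered 2 in Dex against Dil (14.9% of all), 2 in RA-Dex against RA (15.8%), 4 in RA against Dil (7.99%), 2 in RA-Dex against Dex (4.13%) and 3 in the interaction (5.60%). The retinoic acid contrasts had few calls among all genes, so a count of 0 there lies near the background.

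**Figure D1:**
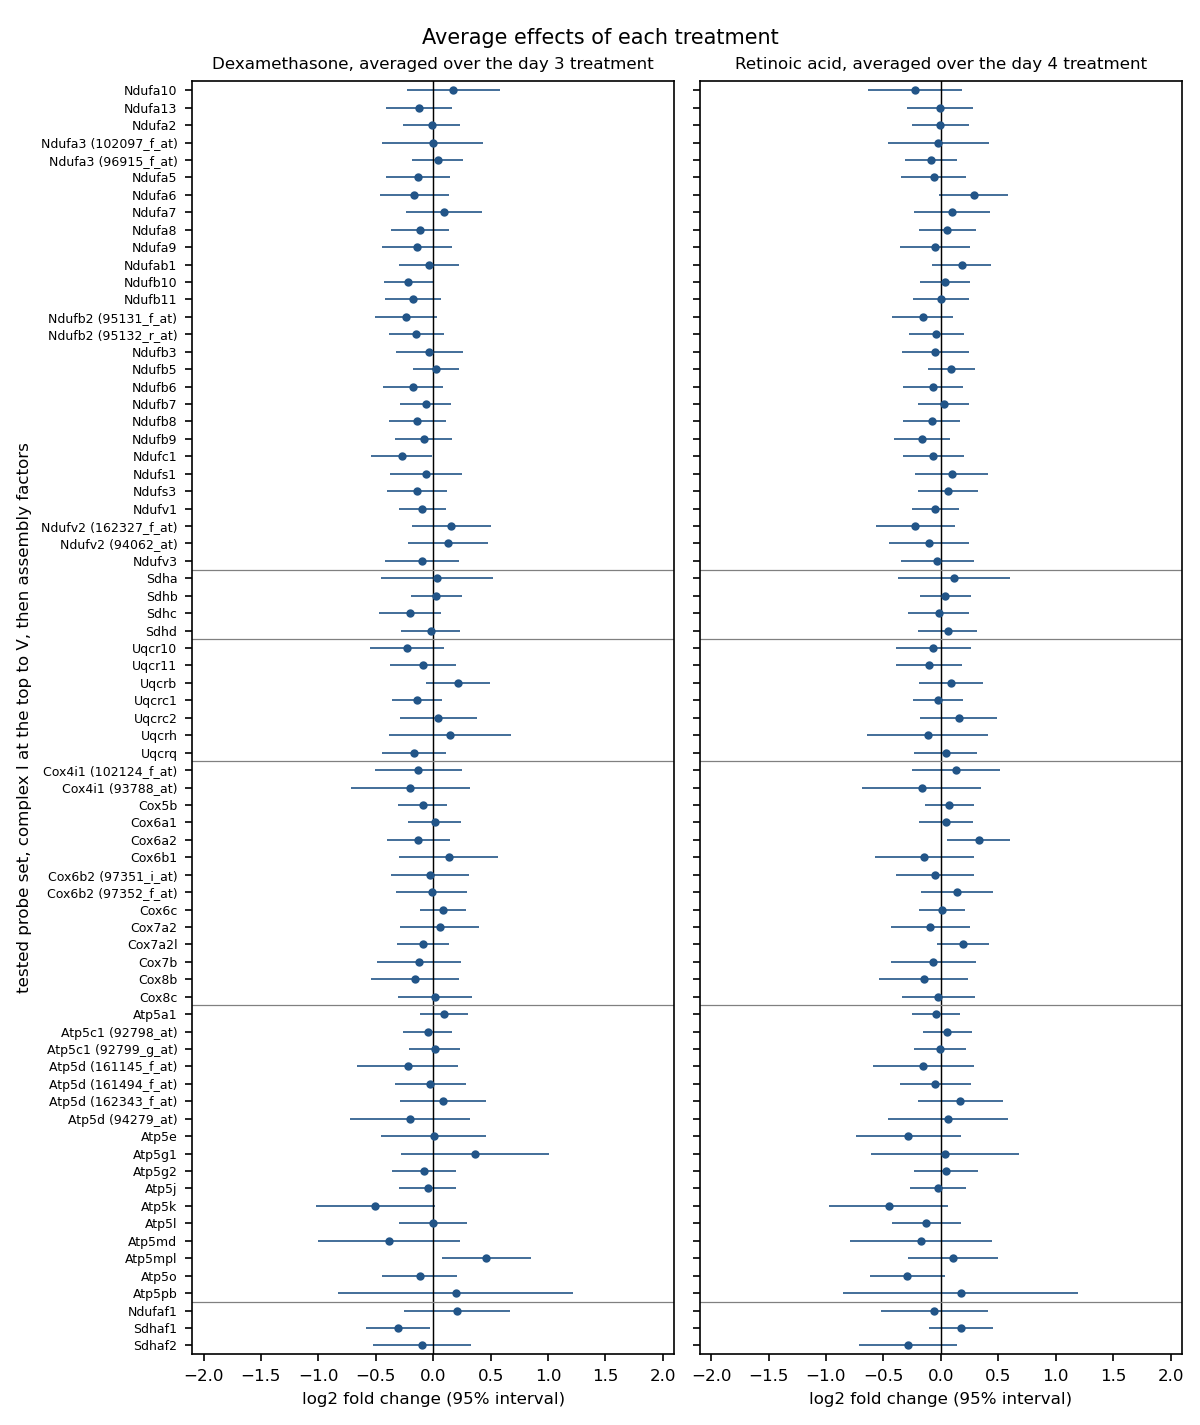
Log2 fold change (point) and 95% interval (line) of each of the 73 tested probe sets for dexamethasone (left) and retinoic acid (right), each averaged over the other treatment, with complexes I to V and the assembly factors from top to bottom. Points lie between -0.50 and 0.46 on the left and between -0.46 and 0.33 on the right, and most intervals span 0.

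The intervals show the precision allowed by the spread between arrays. That spread may be technical, so the intervals do not bound a change between mice. For each averaged effect the median half-width of the 95% interval was 0.29 on the log2 scale, a 1.23-fold difference (2 arrays in each of 4 groups). For dexamethasone the interval lay within 1 log2 unit either way for 69 of 73 members and within 0.5 for 52. The exceptions at 1 log2 unit were all in complex V, Atp5k (-1.02 to 0.02), Atp5md (-1.003 to 0.24), Atp5g1 (-0.28 to 1.01) and Atp5pb (-0.83 to 1.22). For retinoic acid the counts were 72 and 51. Contrasts of 2 arrays against 2 were wider, with a median half-width of 0.41 (1.33-fold).

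The members' effects were also narrower than those of all tested probe sets. Dexamethasone effects had an SD over probe sets of 0.157 for the members and 0.402 for all, and retinoic acid effects 0.136 and 0.246. Medians were -0.07 for the members and -0.03 for all in the dexamethasone effect, with 49 of 73 members below 0 (67.1%, against 55.1% of all). In the retinoic acid effect they were -0.02 and 0.00, with 42 of 73 members below 0 (57.5%). The median shift was largest among the contrasts of single groups in RA-Dex against RA, at -0.13 for the members and -0.05 for all, with 51 of 73 below 0 (69.9%, against 56.0%). RA-Dex against Dex was the most one-sided, with 52 of 73 below 0 (71.2%, against 52.0%) and medians of -0.07 and -0.01. Without array a of Dex the members' median in that contrast was 0.03. In Dex against Dil the medians were -0.03 and -0.02. Comparisons that share arrays are not independent of each other.

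**Figure D2:**
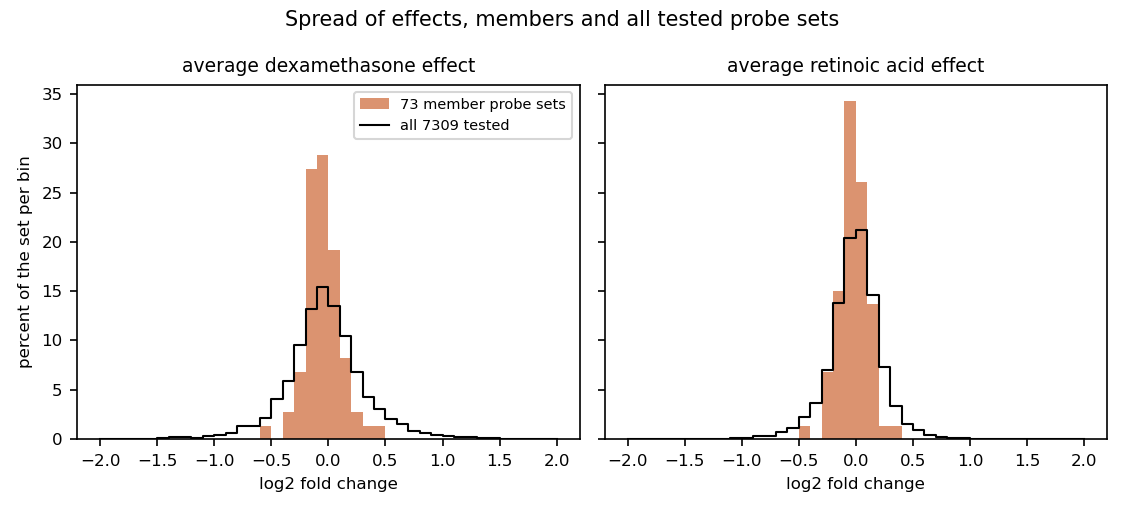
Percent of the 73 member probe sets (filled) and of all 7309 tested probe sets (line) in each bin of log2 fold change, for dexamethasone (left) and retinoic acid (right), each averaged over the other treatment. Members lie between -0.50 and 0.46 on the left and between -0.46 and 0.33 on the right, while the line for all extends further on both sides.

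The signals of the members varied little over the 8 arrays. The highest over the lowest signal of a member had a median of 1.44, against 1.73 for all tested probe sets, and it was under 1.5 for 39 of 73 (53.4%, against 26.5%) and under 2 for 67 (91.8%, against 68.4%). Spread between the 4 group means exceeded spread within groups in 17 of 73 members (23.3%, against 39.1%). By complex this held for 10 of 28 in complex I, 1 of 4 in complex II, 0 of 7 in complex III, 4 of 14 in complex IV and 1 of 17 in complex V. Members were brighter than the average tested probe set, and the part of brightness in their narrow spread was not tested. The array medians of the members' deviation from their own means lay between -0.07 and 0.09 on the log2 scale. They were -0.04 and -0.06 in RA-Dex, 0.06 and -0.07 in Dex, 0.06 and 0.09 in RA, and 0.04 and 0.01 in Dil. The arrays of the Dex group differed from each other, with array a above array b in 55 of 73 members (75.3%, against 48.6% of all), so a comparison with Dex rests on arrays that lie on either side of the mean.

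**Figure D3:**
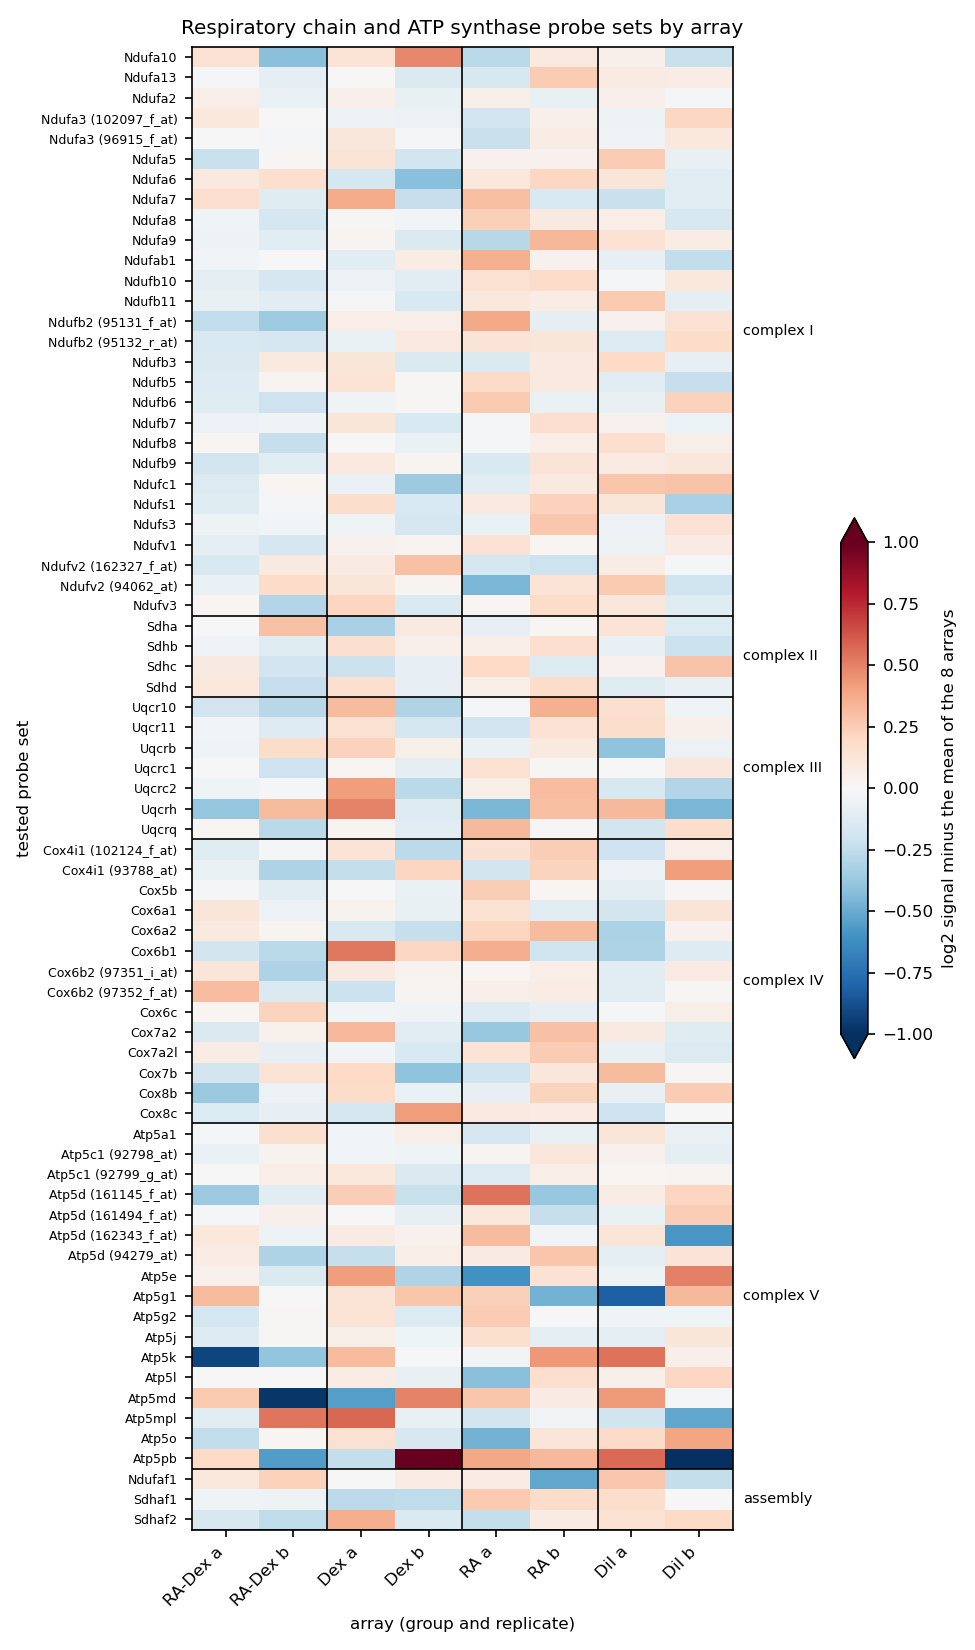
Log2 signal of each of the 73 tested probe sets (rows, by complex) on each of the 8 arrays (columns, by group and replicate) minus its mean over the 8 arrays, red above and blue below. Most cells are pale, no group forms a column of 1 colour, and the deepest colours are in complex V, among them Atp5pb, Atp5k and Atp5md.

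Complex I had the most members, and 20 of its 28 tested probe sets had a highest over lowest signal under 1.5. In this complex 22 of 28 tested probe sets had a dexamethasone effect below 0, with a median of -0.10 and a range of -0.27 to 0.18, and 0 of 28 passed the test. Its retinoic acid effects had a median of -0.04 and ranged from -0.22 to 0.29. Ndufa2, an accessory subunit, had signals of 1821 and 1656 in RA-Dex, 1802 and 1646 in Dex, 1811 and 1654 in RA, and 1799 and 1720 in Dil, so that every group covered nearly the same range. The largest dexamethasone value below 0 was that of Ndufc1, an accessory subunit of the membrane arm, with 1742 and 1937 in RA-Dex, 1823 and 1485 in Dex, 1774 and 2041 in RA, and 2322 and 2327 in Dil. Only the Dil arrays stood apart for Ndufc1, above the other 6 (6.2% of all tested probe sets did so), and RA-Dex overlapped RA. Its averaged log2 fold change was -0.27 ± 0.12 (SE, limma adjusted p = 0.217), and in Dex against Dil it was -0.50 ± 0.17 (adjusted p = 0.178).

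Ndufb10, another accessory subunit of the membrane arm, was lower on all 4 dexamethasone arrays, with 3168 and 3003 in RA-Dex and 3254 and 3131 in Dex, against 3756 and 3845 in RA and 3354 and 3636 in Dil. The difference was small, -0.22 ± 0.10 (SE, limma adjusted p = 0.237). Ndufb10 and the assembly factor Sdhaf1 were the only tested members whose 4 dexamethasone arrays did not overlap the other 4, 2 of 73 (2.74%) against 14.6% of all tested probe sets. For retinoic acid, 0 members had 4 arrays clear of the other 4, against 2.31% of all. Ndufb2, also an accessory subunit, has 2 tested probe sets, and both were lowest in RA-Dex. The first gave 2778 and 2569 in RA-Dex, 3439 and 3454 in Dex, 4275 and 3087 in RA, and 3388 and 3640 in Dil. The second gave 3187 and 3145 in RA-Dex, 3382 and 3790 in Dex, 3867 and 3842 in RA, and 3225 and 4018 in Dil. RA-Dex against RA gave -0.44 ± 0.17 for the first (SE, limma adjusted p = 0.231). Ndufa6, an accessory subunit, had the highest retinoic acid value of the complex at 0.29 ± 0.14 (limma adjusted p = 0.788), with 897 and 941 in RA-Dex, 742 and 626 in Dex, 899 and 967 in RA, and 913 and 781 in Dil. Here the Dex arrays alone were below the other 6, which 4.6% of all tested probe sets showed. Ndufab1, the mitochondrial acyl carrier protein, and Ndufb9 had retinoic acid values of 0.18 ± 0.12 and -0.16 ± 0.11, with overlap between arrays with and without retinoic acid. The core subunits Ndufs1, Ndufs3 and Ndufv1, which carry or flank the redox centres, had dexamethasone values of -0.06, -0.14 and -0.10. The core subunit Ndufv2 has 2 tested probe sets, at 0.13 and 0.16.

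Complex II, which is also succinate dehydrogenase of the citrate cycle, had all 4 subunits tested. Sdha, the flavoprotein, and Sdhb, the iron-sulfur subunit, had dexamethasone values of 0.03 ± 0.22 and 0.03 ± 0.10. Sdhc and Sdhd, which anchor the complex in the membrane, had -0.20 ± 0.12 and -0.02 ± 0.12. Sdhc gave 4180 and 3449 in RA-Dex, 3391 and 3727 in Dex, 4516 and 3582 in RA, and 4061 and 4806 in Dil. Both Dex arrays were below both Dil arrays for Sdhc, while RA-Dex and RA overlapped.

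Complex III had 7 tested genes, and in 0 of the 7 did the group means spread more than the arrays within groups. The core subunits Uqcrc1 and Uqcrc2 had dexamethasone values of -0.14 ± 0.10 and 0.05 ± 0.15. Uqcr10 and Uqcrb, small subunits of the complex, lay at opposite ends, at -0.23 ± 0.15 and 0.22 ± 0.13 (limma adjusted p = 0.430 and 0.368). Uqcrb gave 2206 and 2588 in RA-Dex, 2665 and 2375 in Dex, 2172 and 2436 in RA, and 1718 and 2181 in Dil, and Dex lay above Dil while RA-Dex overlapped RA. Uqcrh, the hinge subunit, shows how far arrays of a group could differ and was chosen for that after its values were seen. It gave 3017 and 4908 in RA-Dex, 5568 and 3600 in Dex, 2879 and 4862 in RA, and 4932 and 2871 in Dil, a low and a high array in every group. The median deviation of the complex was 0.23 on array a of Dex and -0.13 on array b.

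In complex IV several nuclear subunits have tissue isoforms. Cox6a1 is the widely expressed form and Cox6a2 that of heart and skeletal muscle. Cox6a2 had the highest retinoic acid value above 0 of any tested member, 0.33 ± 0.12 (SE, limma adjusted p = 0.669). Its signals were 1784 and 1693 in RA-Dex, 1498 and 1415 in Dex, 1930 and 2073 in RA, and 1334 and 1715 in Dil. The RA arrays were above the other 6, which 6.33% of all tested probe sets showed, while array b of Dil reached the level of RA-Dex. Cox6a1 gave 16243 and 14347 in RA-Dex, 15356 and 14256 in Dex, 16606 and 13808 in RA, and 13182 and 16353 in Dil, with a retinoic acid value of 0.04 ± 0.10. Its groups overlapped throughout.

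Cox7a2, the widely expressed form of its subunit, gave 5734 and 6548 in RA-Dex, 7945 and 5910 in Dex, 4884 and 7784 in RA, and 6758 and 5839 in Dil. Its muscle counterpart Cox7a1 was not tested, with 48.5 and 107 in RA-Dex, 131 and 97.3 in Dex, 39.3 and 145 in RA, and 126 and 29.6 in Dil, around the floor. Cox8b, the muscle form of subunit 8 in rodents, had a tested probe set with 401 and 498 in RA-Dex, 589 and 497 in Dex, 490 and 606 in RA, and 494 and 621 in Dil, and overlapping groups. Another probe set of Cox8b, below the filter, gave 60.4 and 85.0 in RA-Dex, 66.0 and 94.4 in Dex, 181 and 151 in RA, and 87.5 and 158 in Dil. There RA lay above RA-Dex and Dex and overlapped Dil, at levels around the floor. The probe set of the widely expressed Cox8a read 30.3 to 107 over the 8 arrays and was not tested, so this pair could not be compared. Cox8c and Cox6b2 are known as testis forms. Their tested probe sets gave signals of 1412 to 2179 for Cox8c and 539 to 1463 over both of Cox6b2. Another probe set of Cox8c was under the floor on all 8 arrays (7.92 to 21.0), and another of Cox6b2 read 99.5 to 337. Neither was tested. Cox6b2 had dexamethasone values of -0.01 and -0.03. Cox4i1, the widely expressed subunit 4, has 2 dim probe sets, with dexamethasone values of -0.13 and -0.20 and retinoic acid values of opposite sign, 0.13 and -0.17. Cox7a2l, a factor that joins complexes into supercomplexes, had 3530 and 3168 in RA-Dex, 3286 and 3015 in Dex, 3684 and 3994 in RA, and 3176 and 3050 in Dil, with RA above the other 6 arrays and a retinoic acid value of 0.19 ± 0.10 (limma adjusted p = 0.804). Cox5b, a subunit that binds zinc, had RA above the other 6 as well, with 5930 and 5521 in RA-Dex, 5986 and 5686 in Dex, 7074 and 6062 in RA, and 5589 and 5998 in Dil. In all, 7 of 73 members had both RA arrays on top (9.59%, against 6.33%), namely those of Ndufa8, Ndufb10, Cox5b, Cox6a2, Cox7a2l and Sdhaf1 and 1 of the 2 tested probe sets of Cox4i1.

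**Figure D4:**
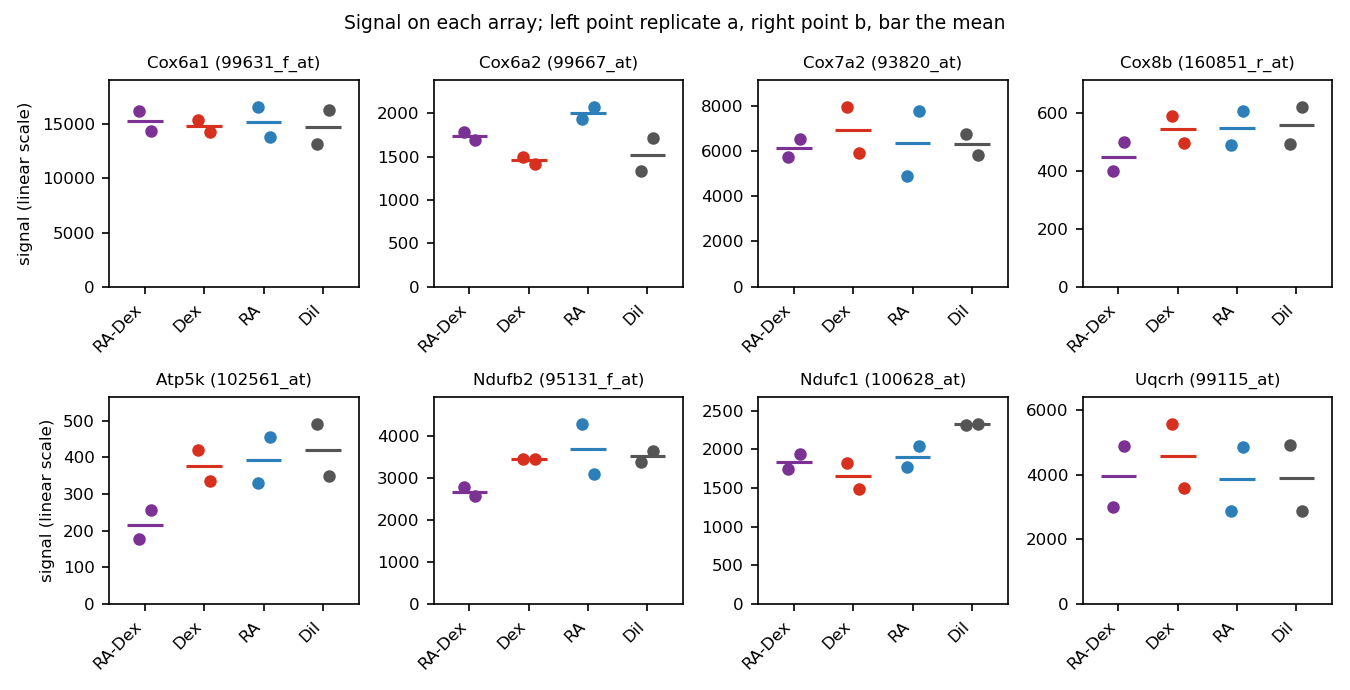
Signal on each array (points, linear scale from 0) and group mean (bar) for 8 probe sets in RA-Dex, Dex, RA and Dil, 2 arrays a group. Cox6a1, Cox7a2, Cox8b and Uqcrh overlap in all groups, Cox6a2 is highest in RA, Atp5k and Ndufb2 are lowest in RA-Dex, and Ndufc1 is highest in Dil.

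Complex V had the largest dexamethasone values in both directions and the widest spread within groups, with a median within-group SD of 0.268 against 0.135 in complex I. Atp5k, subunit e of the membrane part, gave 178 and 255 in RA-Dex, 419 and 335 in Dex, 330 and 455 in RA, and 490 and 349 in Dil. The RA-Dex arrays were below the other 6, which 6.06% of all tested probe sets showed, and the other groups overlapped. Its averaged dexamethasone value was -0.50 ± 0.24 (SE, limma adjusted p = 0.253), and RA-Dex against RA gave -0.86 ± 0.33 (adjusted p = 0.230). Atp5k is among the dimmest tested members, and its promoter is printed above.

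Atp5mpl, a small membrane protein bound to the synthase, had the largest dexamethasone value above 0. It gave 3343 and 5194 in RA-Dex, 5359 and 3405 in Dex, 3159 and 3531 in RA, and 3133 and 2505 in Dil. High and low arrays occurred within both dexamethasone groups, RA-Dex overlapped RA, and the averaged value was 0.46 ± 0.18 (SE, limma adjusted p = 0.155). Atp5o, which encodes the OSCP subunit of the stalk, was highest in Dil, with 3701 and 4450 in RA-Dex, 4894 and 3927 in Dex, 3161 and 4793 in RA, and 5023 and 5786 in Dil, and a retinoic acid value of -0.29 ± 0.15 (limma adjusted p = 0.802). Atp5e, the epsilon subunit of the central stalk, had -0.28 ± 0.21, and Atp5md had a dexamethasone value of -0.38 ± 0.28, with both RA-Dex arrays and both Dex arrays more than 2-fold apart within their group. Atp5a1, the alpha subunit of the catalytic head, had a dexamethasone value of 0.09, and both RA arrays were below the other 6. Atp5c1, the gamma subunit of the central stalk, had -0.05 and 0.01 for its 2 probe sets. The 4 tested probe sets of Atp5d, the delta subunit, ran from -0.22 to 0.09.

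Of the assembly factors, Sdhaf1, which serves iron-sulfur insertion into complex II, was lower on all 4 dexamethasone arrays. It gave 869 and 860 in RA-Dex and 742 and 749 in Dex, against 1069 and 1012 in RA and 1006 and 888 in Dil. RA was the highest group and Dex the lowest, and the averaged value was -0.30 ± 0.13 (SE, limma adjusted p = 0.190). Ndufaf1 and Sdhaf2 had dexamethasone values of 0.21 ± 0.21 and -0.10 ± 0.19, with overlap between arrays with and without dexamethasone.

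Among contrasts of single groups, members whose groups did not overlap, in either direction, made up smaller shares than among all tested probe sets. Both directions together gave 39.7% of members in RA-Dex against RA (44.9% of all), 21.9% in RA-Dex against Dex (34.8%), 23.3% in Dex against Dil (45.6%) and 30.1% in RA against Dil (33.6%). Taken by direction, the share of members was above that of all in 2 cases. RA-Dex lay below RA in 25 members (34.2%, against 26.3% of all) and above it in 4 (5.48%, against 18.5%). RA lay above Dil in 16 (21.9%, against 17.7%) and below it in 6 (8.22%, against 15.9%). RA-Dex lay above Dex in 6 (8.22%, against 16.3%) and below it in 10 (13.7%, against 18.5%). Dex lay above Dil in 7 (9.59%, against 21.1%) and below it in 10 (13.7%, against 24.6%).

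Probe set names ending in other than a plain "_at" mark probes that may match related transcripts or failed design rules. They made up 25 of the 73 tested members (34.2%, against 18.9% of all), and subunit genes have many processed pseudogenes, so the values of Cox6a1, Ndufb2, Sdhaf1, Cox6b2 and the like may include related sequences.

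In lists of neighbouring pathways, 4 genes rose with dexamethasone and 0 fell. These are too few in each list to set it apart from all tested probe sets, of which 4.26% rose, and no difference between lists was tested. In the list of the citrate cycle and pyruvate, 2 of 19 tested genes rose. Pdk4, a kinase that inhibits pyruvate dehydrogenase, gave 1585 and 1815 in RA-Dex and 1066 and 1047 in Dex, against 240 and 193 in RA and 264 and 225 in Dil, with a log2 fold change of 2.55 ± 0.16 (SE, limma adjusted p = 4.74e-06). Idh2, the mitochondrial isocitrate dehydrogenase that uses NADP, gave 6284 and 5927 in RA-Dex and 7015 and 6485 in Dex, against 3398 and 4059 in RA and 4251 and 4291 in Dil, and rose by 0.69 ± 0.10 (adjusted p = 0.00167). In glycolysis 1 of 13 rose, against 4.26% of all, namely Hk2, a hexokinase that starts glycolysis, with 805 and 884 in RA-Dex and 828 and 807 in Dex, against 294 and 332 in RA and 332 and 304 in Dil (1.40 ± 0.15, adjusted p = 0.000247). For these 3 genes every dexamethasone array lay above every other array, as in 6.8% of all tested probe sets. They were named because they passed this contrast, so the separation adds no support.

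Among 12 tested regulators of mitochondrial biogenesis 1 rose, again beside 4.26% of all, namely Nrip1, a corepressor of nuclear receptors, at 0.75 ± 0.20 (limma adjusted p = 0.0445), with 1341 and 1429 in RA-Dex, 943 and 1405 in Dex, 1005 and 567 in RA, and 669 and 821 in Dil. RA array a lay above Dex array a, and the call was lost with the arrays' letter as a block (adjusted p = 0.0715), without the intensity trend (0.104), without the filter (0.253), and without Dex b (0.166), RA-Dex a (0.107), RA-Dex b (0.154), RA b (0.101), Dil a (0.109) or Dil b (0.0687). Ppargc1a, the coactivator best known for driving biogenesis, read 10.5 to 127 over the 8 arrays and was not tested. In the other lists 0 genes passed, of 11 for the rest of the respiratory chain, 12 assembly factors (3 of them members) and 15 carriers and channels. Median dexamethasone values were 0.09 for the citrate cycle and pyruvate, 0.09 for biogenesis regulators, -0.01 for glycolysis, -0.02 for the rest of the chain, -0.10 for carriers and channels and -0.19 for assembly factors, against -0.03 for all tested probe sets. For retinoic acid 0 genes passed in all 6 lists.

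**Figure D5:**
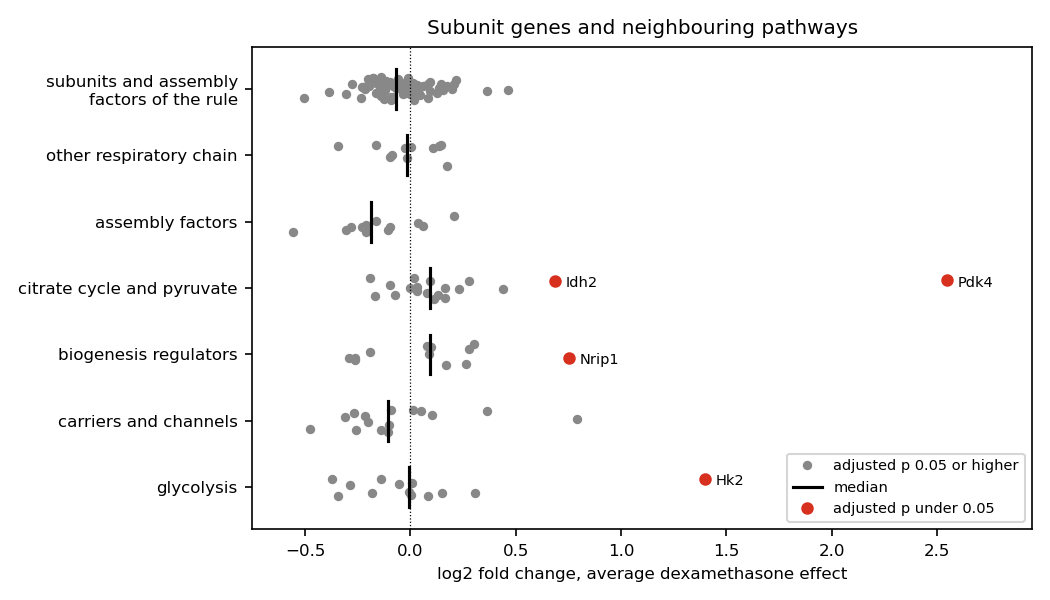
Log2 fold change of the averaged dexamethasone effect for the 73 member probe sets (top) and the tested genes of 6 neighbouring lists, with medians as bars and genes past an adjusted p of 0.05 in red. Pdk4 at 2.55, Hk2 at 1.40, Nrip1 at 0.75 and Idh2 at 0.69 are the genes past the threshold, and 0 members are.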

How the data were processed

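The deposited values are linear intensity signals, 1 per probe set and array, from the authors' value table, and the values show that each array was scaled to a common level, since the mean after trimming 2% at each end differed by a ratio of 1.00004 at most. No label names the software that did this. Of 12488 probe sets, 66 controls were left out. Signals were floored at 85.3, the pooled 25th percentile, and taken as log2, and probe sets with a mean above the pooled 40th percentile (signal 200.8) were tested with no further normalization, since the trimmed means differed by less than 1.1 times. Symbols came from the array's platform annotation, where 10833 of the 12422 probe sets had 1 symbol, 396 several and 1193 none. All 100 members were matched by Entrez ID to the RefSeq gene table of GRCm38.p6.

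Each probe set was fitted in limma 3.58.1 (R 4.3.3) with 1 mean per group over all 8 arrays and tested by eBayes with an intensity trend, two-sided, with 4 residual and 6.69 prior degrees of freedom. Benjamini-Hochberg adjustment covered the 7309 tested probe sets in each of 7 contrasts, with a threshold of 0.05. The fit was also run on simulated data, after the main fit. Members and gene lists were chosen with earlier results of these data known. The members named were those called, those with the 3 smallest unadjusted p-values per complex for each averaged effect, the tissue isoforms, the assembly factors and other probe sets of those genes. Other members are named as examples chosen after their values were seen. The glucocorticoid and TATA motifs were added after the data were seen, and the promoters printed for Atp5k and Cox6a1 were chosen from the motif search. Each pathway or marker gene was represented by its brightest probe set. The number of arrays limits the precision. Alternatives were other normalizations, filters and variance models, a pseudocount of 50, the replicate letter as a block, the mean over a gene's probe sets and leaving out each array.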

Additional observations from a re-analysis of the deposited data

Results flagged for a closer look

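A probe set of Atp5d, the delta subunit of ATP synthase, stood out among the 27 members below the filter. Its signals were 182 and 171 in RA-Dex, against 45.4 and 44.2 in Dex, 49.9 and 44.4 in RA, and 39.6 and 47.4 in Dil. The RA-Dex mean was 2.07-fold over the floor of 85.3, and the other 6 arrays were under it. The other 4 probe sets of Atp5d, all tested, did not have RA-Dex above the other groups, and 8 of the 5113 probe sets below the filter (0.156%) had both RA-Dex arrays over the floor and the other 6 at it. The cause was not tested.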

How the results depend on the processing

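Under 17 alternatives, the number of members called stayed at 0 in each of the 7 contrasts and both directions, apart from the fit with no filter. There 1 member rose instead of 0 in the averaged dexamethasone effect, the averaged retinoic acid effect, RA-Dex against RA, RA-Dex against Dex and the interaction, in each case the dim Atp5d probe set described above. Its log2 fold change in RA-Dex against RA was 1.05 (adjusted p = 0.00147), with a small SE of 0.03 because 6 of its 8 values were set to the floor. With each array left out in turn the counts ranged from 0 to 0. Of 4004 values of named members under the alternatives, 222 changed sign while not called and 0 were newly called. The members' median dexamethasone effect ran from -0.10 to -0.03. That of retinoic acid ran from -0.04 to 0.01 and was above 0 without Dex a, and RA-Dex against Dex turned to 0.03 without Dex a, and Dex against Dil to 0.04 without Dex b.

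The a minus b differences of 2 groups correlated at -0.22 to 0.14, with no common shift by letter. They were positive only for RA-Dex with RA and for Dex with Dil. Array a was higher in RA-Dex and RA, and array b in Dex and Dil, in 11.7% of all tested probe sets (6.85% of members). The reverse held in 11.6% (16.4% of members), and the next most common pattern in 6.88% of all. The cause was not tested, and a block by letter does not absorb this split. With 1 difference per group, the correlations cannot tell whether the letters pair the arrays, and no label says so. With the replicate block 0 members were called and 454 of all tested probe sets passed for dexamethasone, against 572 without it. That count over all probe sets was 349 with no filter and 307 without RA-Dex b, 361 without Dex a and 369 without Dex b. The calls of Pdk4, Idh2 and Hk2 in the averaged dexamethasone effect were kept under every alternative run. With 2 arrays a group, effects under about 1.23-fold lie inside the median interval.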
